A study of Mus musculus with 24 samples.

Results

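The transition described here is the entry of control C2C12 myoblasts into quiescence, measured on 6 of the 24 arrays of the series. It compares the 3 arrays labelled as control myoblasts in quiescence conditions with the 3 labelled as control myoblasts in proliferating condition, chosen by these labels and not by any measured value. C2C12 is a mouse skeletal myoblast line, and both groups had received a negative control siRNA. The proliferating cells grew attached to the dish in growth medium with fetal bovine serum. The quiescent cells were held in suspension in the same medium, so loss of attachment and exit from the cycle cannot be told apart in this comparison. The sources used here do not state the time in suspension. The other 18 arrays hold control cells replated for 2 h after suspension, control cells kept for 48 h in differentiation medium with horse serum, and all 4 states after IFT88 siRNA, again with 3 arrays a group. Total RNA was hybridised to an Affymetrix mouse expression array whose deposited values are log2 signals for 22690 probe sets. A log2 change of 1 is a 2-fold change, and "change" below means the quiescent mean minus the proliferating mean of control arrays on that scale.

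Adult muscle is repaired by satellite cells, which rest outside the cell cycle until injury and can return to rest. Quiescence differs from terminal differentiation in that it is reversible: the cell stops dividing without fusing into a muscle fibre. Myoblasts need attachment to divide, and suspension culture is a long-used way to bring them into a reversible arrest. Cells that leave the cycle lose the transcripts of the replication and mitosis machinery, whose promoters are held silent by the DREAM complex through E2F sites and cell cycle genes homology regions.

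The distribution of signals differed between states, so each change was also read against the median of all tested genes. Array medians over all probe sets lay between 3.58 and 3.62 on the proliferating arrays and between 3.80 and 3.84 on the quiescent arrays. Of the 12393 genes on the array, 8597 passed the filter on dim signals, and their median change was 0.14. The 12 bright bioC, bioD and cre control spikes differed between the 2 states by -0.11 to 0.16. The 6 dim bioB spikes were higher in quiescent cells by 0.19 to 0.58, and the 24 Bacillus spikes differed by -0.034 to 0.71, with 22 of them higher in quiescent cells. In contrast, the 3 probe sets for 18S ribosomal RNA were lower in quiescent cells by -0.72 to -1.48. The Actb signal at the 3′ end exceeded that at the 5′ end by 0.56 to 0.89 on proliferating arrays and by 1.22 to 1.31 on quiescent arrays. The same gap for Gapdh was 0.47 to 1.06 and 0.40 to 0.56, so the 2 transcripts moved in opposite ways. The part of RNA length in any change below was not tested. In bulk RNA of this kind, fewer cells expressing a gene and less RNA per cell cannot be told apart.

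Most measured genes were called different between the quiescent and proliferating control arrays. With limma, 6131 of 8597 genes passed an adjusted p of 0.05, which is 71.3% of them: 3599 genes (41.9%) were higher and 2532 (29.5%) lower in quiescent cells. Centring each array on its median turned this split to 2732 higher and 3344 lower, so the share of rises among small changes rests on the scale. The quartiles of all changes were -0.42 and 0.71, and the Bacillus spikes given above differed by up to 0.71. The part of an offset between states in the small changes was not tested. Larger changes were fewer. At a size of at least 1 log2, 1487 genes (17.3%) were higher and 912 (10.6%) lower, and at a size of at least 3 log2, 188 were higher and 134 lower. The 3 quiescent arrays did not overlap the 3 proliferating arrays for 74.8% of genes. Of the 188 largest rises, 71 started from signals under the filter percentile on all 3 proliferating arrays, and 57 of the 134 largest falls ended under it on all 3 quiescent arrays. For such genes the change depends on where the lowest signals sit and gives a size only roughly.

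**Figure D1:**
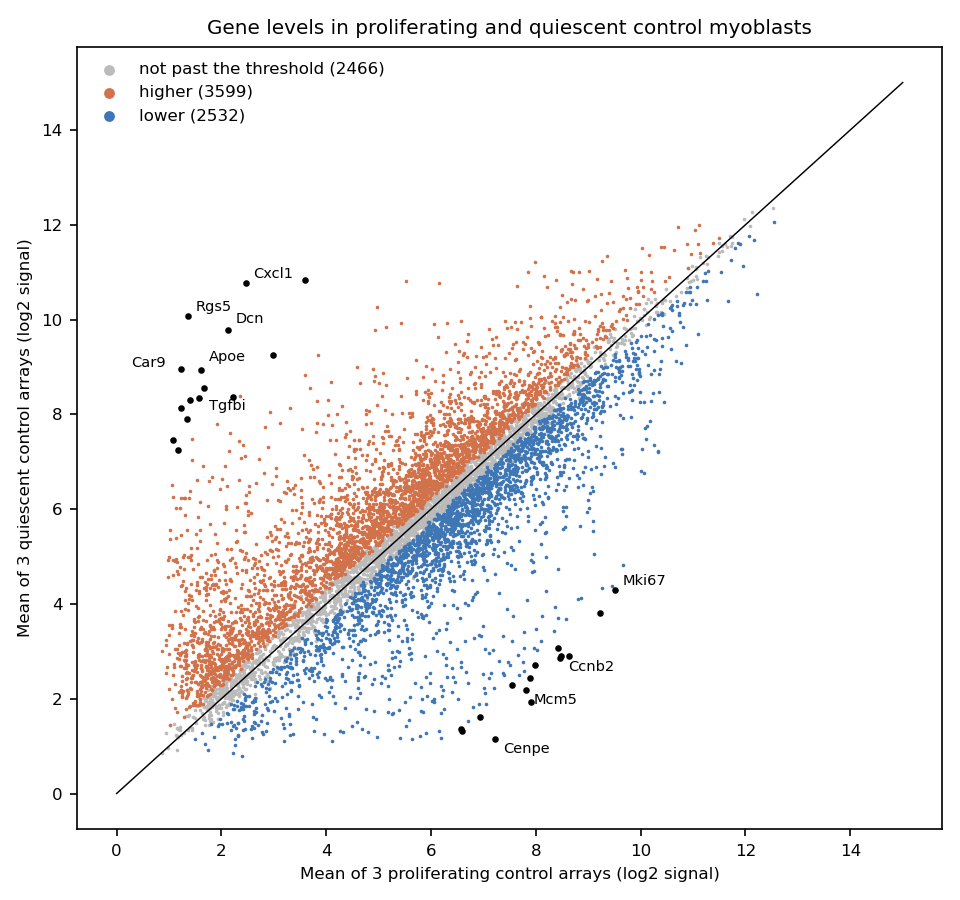
Mean log2 signal of each of the 8597 tested genes on the 3 proliferating (x axis) and 3 quiescent (y axis) control arrays, with genes past an adjusted p of 0.05 in colour and the 30 largest changes as black points. The largest rises lie at proliferating signals under 4, and the largest falls reach quiescent signals between 1 and 5.

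The 15 largest rises all started from mean signals under 4 on the proliferating arrays. Rgs5, a regulator of G protein signalling, read 1.33, 1.43 and 1.33 on the proliferating arrays and 10.32, 9.59 and 10.33 on the quiescent arrays. Its change was 8.72 ± 0.18 (SE, adjusted p = 1.28e-19), the largest measured, and its other 3 probe sets had changes of 5.05, 5.32 and 7.70. Cxcl1, a chemokine that attracts neutrophils, read 2.52, 2.59 and 2.27 and then 10.38, 10.69 and 11.24, a change of 8.31 ± 0.26. Arrays that do not overlap between the states were a condition for entering these 15. Car9, a cell surface carbonic anhydrase and a standard marker of hypoxia, read 1.15, 1.21 and 1.30 in proliferating and 8.67, 9.11 and 9.07 in quiescent cells. Dcn, the small matrix proteoglycan decorin, read 1.75, 2.03 and 2.59 and then 9.70, 9.55 and 10.08. Apoe, a lipoprotein component, rose by 7.32, the protease inhibitor Slpi by 7.23, and the cholesterol exporter Abca1 by 6.90. The other members of the 15 largest rises were Cxcl5 (6.89), 2610528A11Rik (6.89), the matrix protein Tgfbi (6.78), the phagocyte oxidase subunit Ncf4 (6.56), the cytokine receptor chain Csf2rb (6.39), Rgs2 (6.28), the glycolytic enzyme Eno2 (6.14) and the glutathione transferase Mgst1 (6.09). Abca1 and Mgst1 each rest on 1 probe set: the other probe sets of Abca1 (changes of 0.61 and 0.06) and Mgst1 (-0.14) stayed at signals under 2 in both states.

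All 15 of the largest falls were genes of mitosis or DNA replication and its control. Cenpe, a kinetochore motor, read 6.91, 7.45 and 7.30 on the proliferating arrays and 0.87, 1.02 and 1.58 on the quiescent arrays, a change of -6.06 ± 0.36 (adjusted p = 1.89e-12). Cep55, which acts in the last step of cell division, changed by -5.97, and Birc5, the survivin subunit of the chromosomal passenger complex, by -5.74. Mcm5, a subunit of the replicative helicase, read 8.00, 7.81 and 7.62 and then 2.32, 2.02 and 2.23. The next in order were the spindle checkpoint kinase Bub1 (-5.60), cyclin B2 (Ccnb2, -5.58), the cytokinesis motor Kif23 (-5.45), the ubiquitin-conjugating enzyme of the anaphase-promoting complex Ube2c (-5.41) and Uhrf1 (-5.35), which carries DNA methylation through replication. The last 6 were Ect2 (-5.32), Aurkb (-5.28), Cdca5 (-5.27), Hmmr (-5.26), the proliferation marker Mki67 (-5.21) and Kif11 (-5.21). Arrays without overlap between the states were a condition for these 15 as well.

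The counts for each list below are to be read against the shares over all tested genes, 41.9% higher and 29.5% lower. Every one of the 47 measured genes of the G2 and mitosis list fell, 46 of them by at least 1 log2, a size reached by 10.6% of all tested genes. Their median change was -4.50, or -4.64 relative to the median of all genes, and the range ran from -6.06 for Cenpe to -0.63 for Fzr1. The median signal of the list was 7.75, 7.75 and 7.69 on the proliferating arrays and 2.88, 2.80 and 3.37 on the quiescent arrays. The third quiescent array was therefore the highest of its group, at less than a log2 unit above the others. Ccnb2 showed the same order: it read 8.49, 8.47 and 8.46 and then 2.67, 2.64 and 3.37. The mitotic kinases Cdk1 (-4.05) and Plk1 (-4.31) and the transcription factor Foxm1 (-2.46), which drives the G2 programme, fell as well.

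Many promoters of these genes carry the letters of cell cycle motifs. Shown are 3 of the largest falls that hold the letters of a cell cycle genes homology region together with CCAAT boxes. The sequences are the 200 bases before the annotated start, read 5′ to 3′ along the gene, from RefSeq on GRCm38.p6, and the capitals mark TTTGAA or TTTAAA and CCAAT on either strand.
Ccnb2: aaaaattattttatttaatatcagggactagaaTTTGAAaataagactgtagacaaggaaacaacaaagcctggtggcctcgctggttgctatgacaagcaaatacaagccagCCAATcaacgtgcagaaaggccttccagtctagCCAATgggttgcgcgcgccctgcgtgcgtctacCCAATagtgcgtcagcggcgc
Ube2c: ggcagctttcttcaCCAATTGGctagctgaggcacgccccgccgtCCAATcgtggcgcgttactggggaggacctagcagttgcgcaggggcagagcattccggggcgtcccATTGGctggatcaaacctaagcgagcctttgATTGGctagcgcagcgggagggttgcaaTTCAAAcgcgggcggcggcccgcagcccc
Mki67: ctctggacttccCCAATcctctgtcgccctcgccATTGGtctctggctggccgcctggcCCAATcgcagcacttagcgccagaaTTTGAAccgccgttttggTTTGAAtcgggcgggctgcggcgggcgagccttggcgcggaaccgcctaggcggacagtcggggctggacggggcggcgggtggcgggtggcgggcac
They lie at chr9:70421555-70421754 (minus strand), chr2:164769729-164769928 (plus strand) and chr7:135716380-135716579 (minus strand). In Ube2c the homology region letters begin 29 bases before the start and the nearest CCAAT box 57 bases before it. A pair of CCAAT matches on opposite strands overlaps near the left end of that promoter. In Ccnb2 the homology region letters begin 167 bases before the start, upstream of its marked CCAAT boxes at 87, 54 and 21 bases. Within a window of 300 bases (250 before the start and 50 after it), TTTGAA or TTTAAA on either strand occurred in 27 of 38 G2 and mitosis genes with a promoter in the table (71.1%). It occurred in 22.01% of the 6974 tested genes with a promoter and in 27.6% of all 32851 promoters. CCAAT occurred in 28 of 38 genes (73.7%) against 43.2% of tested genes and 37.4% of promoters, and both together in 23 of 38 (60.5%) against 8.95% and 10.7%. These are matches to letters and were not tested.

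DNA replication genes fell as a block. All 43 measured members were lower, 40 of them by at least 1 log2, with a median of -2.64 (-2.77 relative to all genes). Mcm5 (-5.62) led, followed by Uhrf1 (-5.35), Mcm3 (-4.87), thymidine kinase Tk1 (-4.52) and the helicase loader Cdc6 (-4.46). Mcm10 (-3.87), the primase Prim1 (-3.83) and the polymerase subunit Pole (-3.76) came next. The sliding clamp Pcna changed less, by -1.88.

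E2F sites were the motif set for this list, and the promoters of Mcm5 and of the polymerase alpha subunit Pola1 (-3.29) are shown as 2 of the largest falls that hold one. The capitals mark TTTCGCGC or TTTGGCGC on either strand.
Mcm5: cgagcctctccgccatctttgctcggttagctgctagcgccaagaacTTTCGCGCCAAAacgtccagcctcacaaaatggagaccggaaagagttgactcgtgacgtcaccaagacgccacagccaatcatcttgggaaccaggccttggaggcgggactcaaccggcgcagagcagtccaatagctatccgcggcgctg
Pola1: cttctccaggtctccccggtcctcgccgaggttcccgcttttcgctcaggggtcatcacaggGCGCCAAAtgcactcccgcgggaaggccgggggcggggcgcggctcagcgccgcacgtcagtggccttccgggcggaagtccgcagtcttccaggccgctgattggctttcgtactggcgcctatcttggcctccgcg
The Mcm5 stretch is chr8:75109309-75109508 (plus strand) and that of Pola1 chrX:93632156-93632355 (minus strand), both from RefSeq on GRCm38.p6. In Mcm5 a match on each strand overlaps to form 1 run. One of these 2 motifs occurred in 12 of 36 replication genes with a promoter in the table (33.3%), in 2 of 38 G2 and mitosis genes (5.26%) and in 1.96% of tested genes. Counted by promoter, since a gene can have several, it was 26.7% of those of the replication list against 0.813% of all promoters. The homology region letters occurred in 10 of 36 replication genes (27.8%) against 22.01% of tested genes.

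Most measured G1 cyclins and kinases fell, while the inhibitors were split. Of 19 measured G1 cyclins, kinases and E2F factors, 14 fell and 3 rose. Cyclin E2 (Ccne2) changed by -4.96, E2f8 by -4.36, Skp2, which marks p27 for destruction, by -3.26, and cyclin E1 (Ccne1) by -3.17. Ccnd1, the cyclin through which growth factors start G1, read 9.28, 8.78 and 8.45 and then 5.85, 5.32 and 5.74. Of 8 measured CDK inhibitors and pocket proteins, 3 rose and 3 fell. Cdkn1a, encoding p21, read 7.79, 8.58 and 8.99 in proliferating and 10.31, 10.21 and 10.25 in quiescent cells, a change of 1.80 ± 0.23 (adjusted p = 3.59e-07). The proliferating arrays of Cdkn1a spread over more than a log2 unit, whereas the quiescent ones agreed within 0.1. Cdkn1b, encoding p27, rose by 1.18, and Rbl2, the pocket protein p130 of the DREAM complex, by 0.91. Its relative Rbl1 (p107) changed by -2.85, Cdkn2c by -1.35 and Cdkn2d by -0.33.

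Growth arrest genes moved the other way. Of 25 measured genes linked to growth arrest or to Foxo factors, 20 rose, 1 fell and 4 did not pass, with a median of 1.51 against 0.14 for all genes. Txnip, which limits glucose uptake, read 3.43, 3.85 and 3.77 and then 8.78, 8.34 and 8.52. The transcription factors Klf4 (2.74), Klf2 (2.32) and Foxo3 (2.61) rose, as did Mxi1 (2.71), an antagonist of Myc, and the nuclear receptor cofactor Pnrc1 (2.64). The exception was Hes1, a Notch target, with a change of -1.77. Among 21 measured p53 targets, 13 rose and 2 fell (10 and 3 with centred arrays); Ephx1 (3.32), Trp53inp1 (2.57) and Gadd45a (2.56) led.

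**Figure D2:**
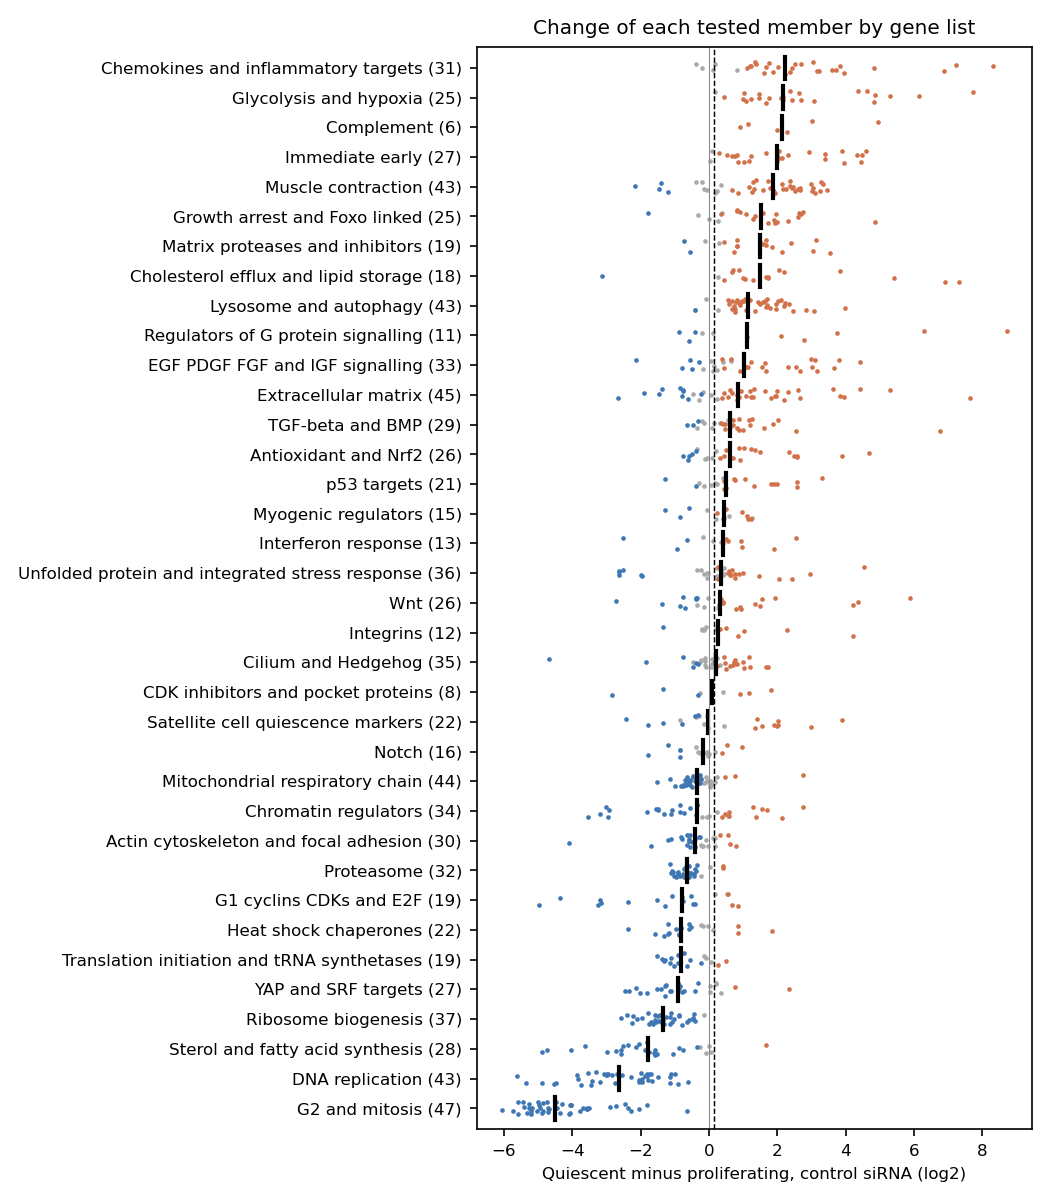
Change of every tested member of the 36 pathway lists (quiescent minus proliferating control arrays, log2; tested members in brackets), orange for higher and blue for lower past an adjusted p of 0.05 and grey otherwise. Black bars are list medians and the dashed line is the median of all tested genes (0.14); the G2 and mitosis list lies lowest at -4.50 and the chemokine list highest at 2.24.

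Immediate early genes, which respond within minutes to growth factors and stress, were high in the suspended cells. Of 27 measured, 25 rose and none fell, with a median of 2.00, and 19 rose by at least 1 log2. Nr4a1, an orphan nuclear receptor, read 4.58, 3.77 and 3.92 and then 8.24, 8.75 and 9.04. Fos, an AP-1 subunit, read 6.52, 6.31 and 3.47 in proliferating cells and 9.35, 10.23 and 10.19 in quiescent cells. The third proliferating array was almost 3 log2 units below the other 2, and the change of 4.49 had an SE of 0.65. Atf3 (4.45), Fosb (4.33), the RNA-destabilising protein Zfp36 (3.94), the GTPase Gem (3.88), Ier3 (3.40) and Maff (3.39) followed.

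Chemokines and inflammatory targets rose, with wide spread among the quiescent arrays for several of them. Of 46 members on the array, 31 passed the filter, of which 26 rose by at least 1 log2 and none fell. Over all 46, without the filter, the median was 1.28, with 29 higher and none lower. Cxcl1, Slpi and Cxcl5 are given above, and Ccl8 rose by 4.83, Saa3 by 3.61. Il6, a cytokine also made by muscle, read 1.20, 1.28 and 1.33 and then 3.43, 4.50 and 7.03. Ccl2, which attracts monocytes, read 4.37, 3.84 and 3.20 and then 6.08, 7.57 and 9.24. Cxcl2 read 1.03, 0.86 and 1.06 and then 3.19, 4.64 and 6.96. In all 3 genes the states did not overlap, yet the quiescent arrays differed among themselves by more than 3 log2 units, with the third the highest.

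The proximal promoters of Cxcl1 and Cxcl2 are shown because both hold one of the NF-kB sites searched, read as GGGA, then C or A, then TTTCC on either strand, in capitals.
Cxcl1: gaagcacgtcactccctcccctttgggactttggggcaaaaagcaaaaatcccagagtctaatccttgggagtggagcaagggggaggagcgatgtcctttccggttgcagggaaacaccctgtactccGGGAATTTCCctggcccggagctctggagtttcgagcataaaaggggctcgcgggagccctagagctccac
Cxcl2: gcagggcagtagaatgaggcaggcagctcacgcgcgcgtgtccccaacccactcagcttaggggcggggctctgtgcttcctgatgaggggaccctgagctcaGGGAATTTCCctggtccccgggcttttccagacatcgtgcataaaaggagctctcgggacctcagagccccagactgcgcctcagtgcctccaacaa
Both lie on the plus strand, at chr5:90891045-90891244 and chr5:90903699-90903898, from RefSeq on GRCm38.p6. The sites begin 71 and 97 bases before the start. One of the 2 forms occurred in 4 of 22 genes of the list with a promoter in the table (18.2%), in 0.358% of tested genes and in 0.244% of all promoters. The AP-1 site TGACTCA occurred in 5 of 22 (22.7%) against 4.79% of tested genes and 5.20% of promoters.

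Other immune genes moved less uniformly. All 6 measured complement genes rose, among them the C1 inhibitor Serping1 (4.94), C1s1 (3.03) and Masp1 (2.29), but 14 members were on the array and their median without the filter was 0.29. The other probe sets of Masp1 changed by 2.62, 1.66, -0.02 and -0.22. Of 13 measured interferon response genes, 7 rose and 3 fell (6 and 4 with centred arrays), with Isg20 (2.54) and Irf1 (1.90) at one end and Ifit2 (-2.52) at the other.

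Genes tied to attachment and tension on the actin skeleton fell. Of 27 measured targets of YAP and SRF, the transcription factors that sense spreading and free actin, 20 fell and 2 rose, with a median of -0.90. Ankrd1 read 9.92, 9.61 and 9.38 and then 7.30, 7.05 and 7.13. Tagln, an actin-binding protein, read 10.18, 10.18 and 10.20 and then 7.77, 7.71 and 8.07. Cnn1 (-2.15), Amotl2 (-2.02), Ccn2 (-1.83), the myosin light chain Myl9 (-1.52) and Acta2 (-1.29) fell with them. The main exception was F3, tissue factor, which rose by 2.34. Of 30 measured actin and focal adhesion genes, 18 fell and 4 rose; Diaph3 (-4.10), a formin used in cell division, and the cytoplasmic actin Actg1 (-1.68) led the falls. Among 12 measured integrins, 6 rose and 1 fell, or 4 and 3 with centred arrays. Itgb4, the partner of integrin alpha 6 in hemidesmosomes, read 1.35, 1.34 and 1.35 and then 5.41, 5.47 and 5.78, whereas Itga7, the laminin receptor of muscle, fell by 1.34.

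Matrix genes were mostly higher. Of 45 measured extracellular matrix genes, 30 rose and 10 fell, with a median of 0.85. Behind Dcn came the collagen VI chains Col6a1 (5.29) and Col6a2 (4.42), then Postn (3.96). Col6a1 read 3.88, 5.18 and 5.86 on the proliferating arrays and 10.58, 10.12 and 10.10 on the quiescent arrays, so the first proliferating array was the lowest. The prolyl hydroxylases P4ha2 (3.84) and P4ha1 (3.64), which make collagen stable, rose with little spread. Other matrix genes did not all follow: Col8a1 changed by -2.66, while Fn1 (0.85) and Col3a1 (0.89) rose. Of 19 measured matrix proteases and inhibitors, 15 rose and 2 fell, led by Adamts1 (3.55), Mmp19 (3.14) and Mmp9 (3.04).

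Genes of glycolysis and of the hypoxia response rose together. Of 25 measured, 24 rose, 22 of them by at least 1 log2, and none fell; the median was 2.16. Bnip3, which acts in the removal of mitochondria, read 5.22, 5.61 and 5.75 and then 10.64, 10.96 and 10.87. Pdk1, which shuts pyruvate out of the citric acid cycle, read 3.17, 3.33 and 3.40 and then 7.88, 8.40 and 8.11. Ero1a (4.86), Ndrg1 (4.62), Adm (4.35) and the glucose transporter Slc2a1 (3.08) followed. The pyruvate kinase gene Pkm rose by less (0.45). The respiratory chain moved slightly down: of 44 measured genes 27 fell, 2 of them by at least 1 log2, and 3 rose, with a median of -0.35. Cycs (-1.53), cytochrome c, led the falls, and Ppargc1a (2.74), a coactivator of mitochondrial genes that was put in this list, was the largest rise. The other probe sets of Ppargc1a changed by 0.69 to 1.60.

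Transcripts of sterol synthesis mostly fell, and those of the cholesterol efflux and lipid storage list mostly rose. Of 28 measured genes of sterol and fatty acid synthesis, 23 fell, 20 of them by at least 1 log2, and 1 rose; the median was -1.78. Idi1, which isomerises the isoprenoid unit, read 7.97, 8.00 and 7.93 and then 3.13, 3.14 and 2.96, a change of -4.89 ± 0.11 (adjusted p = 3.74e-19). Fdps (-4.74), Msmo1 (-4.04), Cyp51 (-3.63), Stard4 (-2.99) and Sc5d (-2.71) followed, and the regulator Srebf2 itself changed by -1.81. The rise was Scd1 (1.67), a fatty acid desaturase. Of 18 measured genes of cholesterol efflux and lipid storage, 16 rose and 1 fell. Abcg1, Nr1h3 and Fabp4 did not pass the filter. Apoe read 1.65, 1.57 and 1.59 and then 9.14, 8.52 and 9.12. Abca1 read 1.26, 1.16 and 1.29 and then 8.27, 7.99 and 8.14. Lipoprotein lipase (Lpl) rose by 5.41, while the fatty acid carrier Fabp5 fell by 3.12.

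The sterol regulatory element was searched as TCAC, any base, then CCAC on either strand, and the promoter of Hmgcs1 (-2.51), the synthase at the start of the pathway, is shown as the 1 promoter of the list that held it.
Hmgcs1: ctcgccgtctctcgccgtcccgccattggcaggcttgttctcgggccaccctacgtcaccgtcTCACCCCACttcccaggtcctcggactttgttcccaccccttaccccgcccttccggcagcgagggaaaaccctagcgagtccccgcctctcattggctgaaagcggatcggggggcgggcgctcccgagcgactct
It lies at chr13:119690151-119690350 on the plus strand of GRCm38.p6, from RefSeq. The element occurred in 1 of 21 genes (4.76%), in 1.39% of tested genes and in 1.24% of all promoters. CCAAT occurred in 19 of the 21 (90.5%) against 43.2% of tested genes and 37.4% of promoters.

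Ribosome and translation genes were mostly lower. Of 37 measured ribosome biogenesis genes, 36 fell, 26 of them by at least 1 log2, and none rose, with a median of -1.34. Rrp12 (-2.59), Nop56 (-2.39), Polr1e (-2.26), Nop58 (-2.22) and the rRNA methyltransferase Fbl (-1.96) were among the largest. Of 19 measured translation factors and tRNA synthetases, 14 fell and 2 rose, led by Iars (-1.52). Of 32 proteasome subunits 27 fell and 2 rose, with a narrow range around a median of -0.66. Of 22 measured heat shock chaperones, 15 fell and 3 rose; the mitochondrial chaperonin Hspd1 (-2.36) was lowest and inducible Hspa1a (1.85) highest.

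The list of the unfolded protein and integrated stress responses moved both ways. Of 36 measured members 16 rose and 6 fell, near the shares over all genes for rises, and with centred arrays 10 rose and 8 fell. The 6 that fell include the serine and one-carbon enzymes Psat1 (-2.63), Phgdh (-2.63), Shmt2 (-2.62) and Mthfd2 (-2.53), and all 6 fell by at least 1 log2. Phgdh, the first enzyme of serine synthesis, read 10.05, 10.11 and 10.13 and then 7.51, 7.43 and 7.48. The rises included Vldlr (4.55), the endoplasmic reticulum cochaperone Dnajb9 (2.95), the phosphatase subunit Ppp1r15a (2.43) and the stress factor Ddit3 (2.06).

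Transcripts of lysosome genes showed the opposite sign to those of the proteasome. Of 43 measured lysosome and autophagy genes, 39 rose, 26 of them by at least 1 log2, and 1 fell, with a median of 1.14. The cathepsins Ctsf (3.97), Ctsh (3.07) and Ctsa (2.85) and the glycosidase Gaa (2.47) led. Ctsf read 1.41, 1.60 and 1.53 and then 5.08, 5.55 and 5.82. Of 26 measured antioxidant genes 16 rose and 5 fell; the selenium carrier Selenop rose by 4.70, Gpx3 by 3.89, haem oxygenase Hmox1 by 2.58, and the metallothioneins Mt2 and Mt1 by 2.48 and 2.35.

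Signalling lists held both rises and falls, with ligands, receptors and secreted antagonists among the largest rises. Of 33 measured genes of EGF, PDGF, FGF and IGF signalling, 21 rose and 5 fell. The EGF receptor ligands Btc (4.42) and Ereg (3.66), the receptors Pdgfra (3.80) and Fgfr1 (2.98), and the ligands Vegfd (3.17), Kitl (3.09) and Hgf (3.01) led. Hgf, known as an activator of satellite cells, read 3.68, 3.52 and 3.85 and then 6.64, 6.69 and 6.74. Of 26 measured Wnt genes 14 rose and 8 fell, against 41.9% and 29.5% of all genes; with centred arrays 10 rose and 10 fell, and over all 35 on the array the median was 0.13. The 3 largest rises were secreted Wnt antagonists or their relatives, Sfrp4 (5.89), Dkk3 (4.38) and Dkk2 (4.22), and the largest fall was Ccn4 (-2.73), a Wnt target. Of 29 measured TGF-beta and BMP genes 19 rose and 3 fell, led by Tgfbi, the activin subunit Inhbb (2.54) and the BMP antagonist Grem1 (2.02). Notch genes moved little: of 16 measured, 3 rose and 4 fell, with Hes1 (-1.77) and Lfng (-1.19) lowest and Numb (0.98) highest. Among 11 measured regulators of G protein signalling, 6 rose and 3 fell, with Rgs4 (3.74), Rgs17 (2.79) and Rgs3 (2.11) behind Rgs5 and Rgs2. Over all 14 on the array, without the filter, 6 rose and 4 fell, near the shares over all genes, and the median was 0.18.

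The primary cilium, which IFT88 helps to build, forms in non-dividing cells. Of 35 measured cilium and Hedgehog genes 15 rose and 6 fell, a share of rises near the 41.9% of all genes. With arrays centred on their medians 13 rose and 12 fell, and the list's median of 0.20 turned to -0.02. Bbs2, a subunit of the BBSome that carries cargo into the cilium, read 4.14, 4.20 and 4.54 and then 6.08, 6.05 and 5.97. Tctn2 (1.66), the anterograde motor Kif3a (1.22), Inpp5e (1.17), Ift140 (1.02) and Ift81 (0.99) also rose. Ift88 read 4.35, 3.74 and 4.13 and then 4.45, 4.25 and 4.24; the states overlapped, and its change of 0.24 ± 0.16 did not pass (adjusted p = 0.184). Aurka (-4.69), a mitotic kinase that also disassembles cilia, and the Hedgehog-binding protein Hhip (-1.85) were the largest falls.

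Of 34 measured chromatin regulators, 19 fell and 10 rose. Hmgb3 (-3.54), lamin B1 (Lmnb1, -3.20), Suv39h2 (-3.02), Hmgb2 (-2.95), H2ax (-2.94) and the methyltransferase Ezh2 (-1.81) fell. The linker histone H1f2 (2.76) and the demethylase Kdm5b (2.15) rose.

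Most measured myoblast markers fell but stayed detectable. All 7 measured myoblast markers stayed above the filter percentile on all 3 arrays of both states, and 6 of them fell. Of the 9 on the array, Msc and Pax7 did not pass the filter. Myod1, which commits cells to muscle, read 7.78, 7.77 and 8.29 and then 6.80, 6.46 and 6.72, a change of -1.29 ± 0.19 (adjusted p = 3.2e-06). Myf5 changed by -0.57 and the adhesion molecule Cdh15 by -2.43. Of 15 measured myogenic regulators, 7 rose and 3 fell (4 and 3 with centred arrays), with Twist1 (1.24), Id4 (1.15) and Pax3 (1.10) highest. Of 22 measured satellite cell quiescence markers, 9 rose and 6 fell, close to the 41.9% and 29.5% of all genes. Gpx3 (3.89), Fgfr1 (2.98), Vcam1 (2.03), Cd34 (2.02), Col5a3 (1.99) and the growth factor inhibitor Spry1 (1.91) rose, and Cdh15 (-2.43), Hes1 (-1.77), Itga7 (-1.34) and Fgfr4 (-0.78) fell. The other probe set of Col5a3 changed by only 0.077. Pax7 and Calcr, 2 defining satellite cell genes, did not pass the filter: Pax7 read between 1.14 and 1.47 in proliferating and between 1.84 and 2.12 in quiescent cells, and Calcr read at most 1.23 in either.

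Muscle contraction genes were higher in suspension, but the proliferating arrays did not agree on their starting level. Of 43 measured, 32 rose and 4 fell, with a median of 1.87. The median signal of the list was 2.85, 4.38 and 5.05 on the proliferating arrays and 6.66, 6.35 and 6.46 on the quiescent arrays. The first proliferating array was thus the lowest by 1.5 log2 units, and without it the median change was 1.29, with 29 higher and 6 lower. Myogenin (Myog), which starts terminal differentiation, read 4.94, 7.26 and 8.74 and then 8.49, 8.05 and 8.14. Its states overlapped, and its change of 1.25 ± 0.59 did not pass (adjusted p = 0.0638); without the first proliferating array it was 0.23. Myh3, the embryonic myosin heavy chain, read 2.85, 5.12 and 6.33 and then 8.51, 7.67 and 7.84. Myl1 (3.44), Mybph (3.35), Myh1 (3.28), Casq2 (3.11) and myoglobin (Mb, 3.05) also rose, whereas Tpm1 changed by -1.40 and the acetylcholine receptor subunits Chrnb1 and Chrna1 by -2.16 and -1.21. The other probe set of Mb changed by only 0.024, and the other sets of Myh1 by -0.0014 and 3.41.

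Markers of other cell types were checked because several lists share genes with them. Of 15 macrophage markers on the array, 6 passed the filter and 4 rose: Cd14 (3.80), Cd53 (3.32), Cd68 (1.73) and Csf1r (1.48). The other probe sets of Csf1r changed by -0.12 and 0.62. Over all 15 the median was 0.092, with 5 higher and none lower. The defining leukocyte and macrophage genes Ptprc and Adgre1 stayed at or under 1.26 and 1.76 on every array of both states, and Itgam, Aif1, Tyrobp, Lyz2 and Mpeg1 stayed under the filter as well. The log2 of the summed signal of the macrophage list was 5.92 to 6.14 on proliferating and 8.54 to 8.66 on quiescent arrays. Such a sum is led by the brightest members, here Cd14 at 8.00 to 8.01 on quiescent arrays, and does not show a rise across the list. Of 9 fibroblast markers on the array, 6 passed the filter and rose, but only 2 of these were above it on all 3 proliferating arrays, so most passed through the quiescent group. Thy1 read 1.36 to 1.48 in proliferating and 1.04 to 1.57 in quiescent cells, and Tcf21 0.81 to 1.21 and 0.63 to 0.97. The summed signal of the fibroblast list was 5.81 to 6.17 and then 10.32 to 10.69, led by Dcn at 9.55 to 10.08 on quiescent arrays. Of 8 adipocyte markers on the array, 4 passed the filter and rose, of which 2 were above it on all 3 proliferating arrays. They include Plin4 (3.85), Retn (2.96) and Cebpa (2.46). Over all 8 the median was 1.22, with 5 higher, and Adipoq read at most 1.49 on any array. The summed signal of the adipocyte list was 5.42 to 5.83 and then 7.81 to 8.01, led by Cebpa at 7.07 to 7.25 on quiescent arrays. Of 10 endothelial and 11 epithelial markers on the array, 1 and 2 passed the filter, and only Krt19 (3.60) among them rose by at least 1 log2; Pecam1 and Epcam read at most 1.19 and 1.17. Of 7 measured smooth muscle markers 2 rose and 3 fell, and of 2 measured bone and cartilage markers Sox9 rose (1.73) and Sp7 fell (-0.48). The part of other cell types in these rises was not tested.

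**Figure D3:**
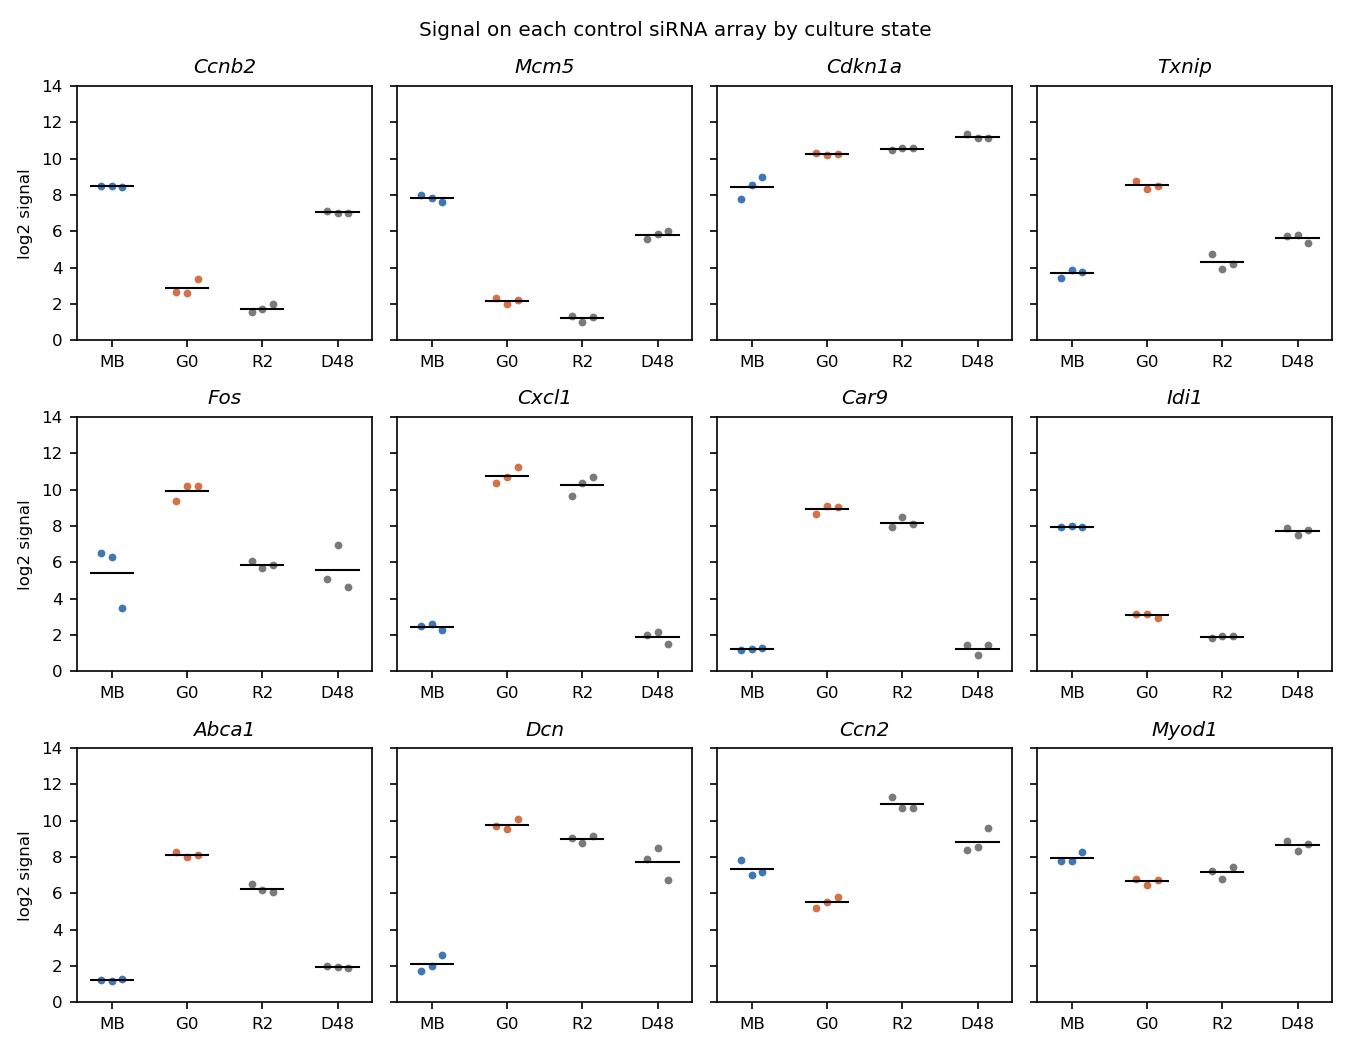
Log2 signal of 12 genes on each of the 3 arrays of proliferating (MB), quiescent (G0), replated (R2, 2 h) and differentiating (D48, 48 h) control cells, with black bars for group means. Ccnb2, Mcm5 and Idi1 sit low in G0 and R2 and high in MB and D48, and Car9, Cxcl1 and Abca1 the other way round.

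Cells treated with IFT88 siRNA went through the same transition on arrays of their own. They gave a second measurement of it, but same-numbered arrays of the 2 siRNAs moved together for some genes. Ccnd1 read 9.28, 8.78 and 8.45 on proliferating control arrays and 9.31, 8.80 and 8.30 after IFT88 siRNA. Cxcl2 read 3.19, 4.64 and 6.96 on quiescent control arrays and 3.71, 4.26 and 6.38 after IFT88 siRNA. Whether the 2 measurements are independent was not tested, and the test of their difference below used no pairing across siRNAs. Ift88 itself read 4.35, 3.74 and 4.13 on proliferating control arrays and 3.62, 3.49 and 3.54 after IFT88 siRNA. With limma, 5942 genes (69.1%) changed on entry in these cells, and 5445 were called in the same direction in both, which is 88.8% of the control calls and 91.6% of the knockdown calls; 4 were called in opposite directions. The difference between the 2 entry changes passed for 107 genes (1.24%), of which 77 (0.896%) were higher and 30 (0.349%) lower after IFT88 siRNA; 732 had an unadjusted p under 0.05. With array weights it passed for 285 genes, 178 higher and 107 lower. Of the 107 genes that passed without array weights, 60 fell in control cells and fell less after IFT88 siRNA. Another 27 rose in control cells and rose less, 12 rose more, 1 fell more, and 7 were not called in control cells.

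The G2 and mitosis list held many of these smaller falls. For 28 of its 47 genes the difference passed, always towards a smaller fall, against 0.896% of all tested genes in that direction. The list's median change was -4.50 in control and -3.36 in knockdown cells. Its median signal was alike on the proliferating arrays of both, at 7.70, 7.82 and 7.52 after IFT88 siRNA, but 4.13, 4.66 and 4.46 on the quiescent knockdown arrays against at most 3.37 on the control ones. Mki67 read 3.97, 4.14 and 4.79 in quiescent control cells and 6.31, 6.76 and 6.63 in quiescent knockdown cells, a difference in entry change of 2.24 ± 0.28 (adjusted p = 0.000117). Of the 43 DNA replication genes 4 differed. No gene differed in the lists of immediate early, sterol synthesis, glycolysis, ribosome, lysosome or muscle contraction genes, whose numbers of tested members are given above; a p that misses the threshold does not show that these acted alike.

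**Figure D4:**
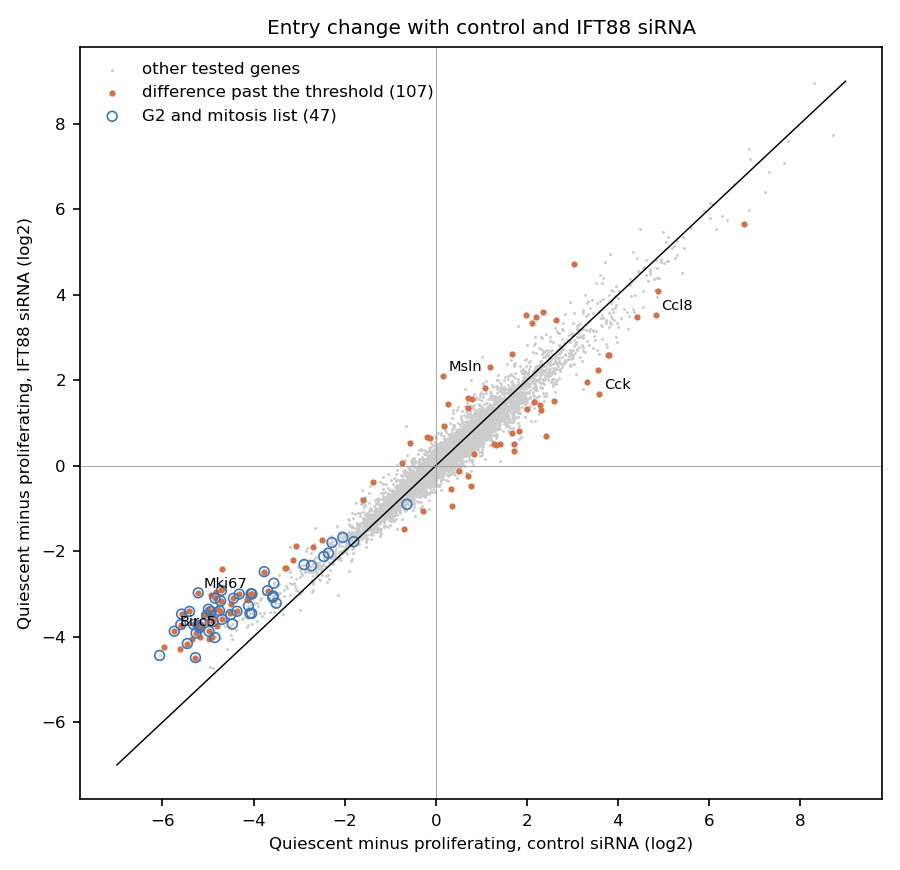
Entry change (quiescent minus proliferating, log2) of all 8597 tested genes with control siRNA (x axis) and IFT88 siRNA (y axis), with the 107 genes whose difference passed an adjusted p of 0.05 in orange, the 47 G2 and mitosis genes circled, and the line of equal change. The circled genes lie above the line at control changes under -3, and most other genes lie near it.

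The quiescent control arrays also serve as the start or reference of 2 other comparisons, which share these arrays with the entry change, so values are set side by side without a measure of likeness. Against quiescence, 48 h of differentiation changed 5677 genes (66%), with 2258 higher and 3419 lower (26.3% and 39.8% of those tested). Centring the arrays moved this to 2773 higher and 2851 lower. All 43 measured muscle contraction genes were higher in differentiating than in quiescent cells, by a median of 2.72, and their median signal on the differentiating arrays was 9.59, 9.25 and 9.16. Myog read 10.75, 10.69 and 10.71 there. The G2 and mitosis list stood at 6.21, 6.17 and 6.37 in differentiating cells, above all 3 quiescent arrays, with 46 of 47 genes higher. Of the 25 glycolysis and hypoxia genes 23 were lower in differentiating cells, with a list median of -2.36, and of the 28 sterol and fatty acid genes 23 were higher. Car9 averaged 1.26 and Cxcl1 1.88 in differentiating cells.

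After replating for 2 h, mitosis genes stayed low while ribosome biogenesis genes and Ccn2 were higher than in suspension. Signals on the replated arrays were mostly lower, with a median change against quiescence of -0.61, so of 6575 called genes (76.5% of those tested) 827 were higher and 5748 lower (9.62% and 66.9%). The gap between 3′ and 5′ signals was 0.88 to 1.55 for Gapdh and 1.27 to 1.90 for Actb on the replated control arrays, wider for Gapdh than the 0.40 to 0.56 of the quiescent arrays, and its part in these changes was not tested. Centring turned the split to 3981 higher and 1800 lower, and the following changes are therefore given relative to the median of all genes. The median relative change of the ribosome biogenesis list was 1.16, with Nop56 at 2.05. That of the chemokine list was 0.98, with Il6 at 4.95, and that of the YAP and SRF target list was 0.83. On the scale as deposited these medians were smaller. They were 0.55 for ribosome biogenesis (26 genes higher, 3 lower), 0.37 for chemokines (13 higher, 7 lower) and 0.22 for YAP and SRF targets (10 higher, 7 lower). Ccn2 read 5.22, 5.53 and 5.82 in quiescent cells and 11.28, 10.71 and 10.70 after replating, a relative change of 5.99. Txnip went from 8.78, 8.34 and 8.52 to 4.77, 3.90 and 4.19. The G2 and mitosis list was not higher: its median signal was 2.08, 1.94 and 1.97 after replating, and its relative change was -0.37. Mcm5 read 1.35, 1.02 and 1.30.

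**Figure D5:**
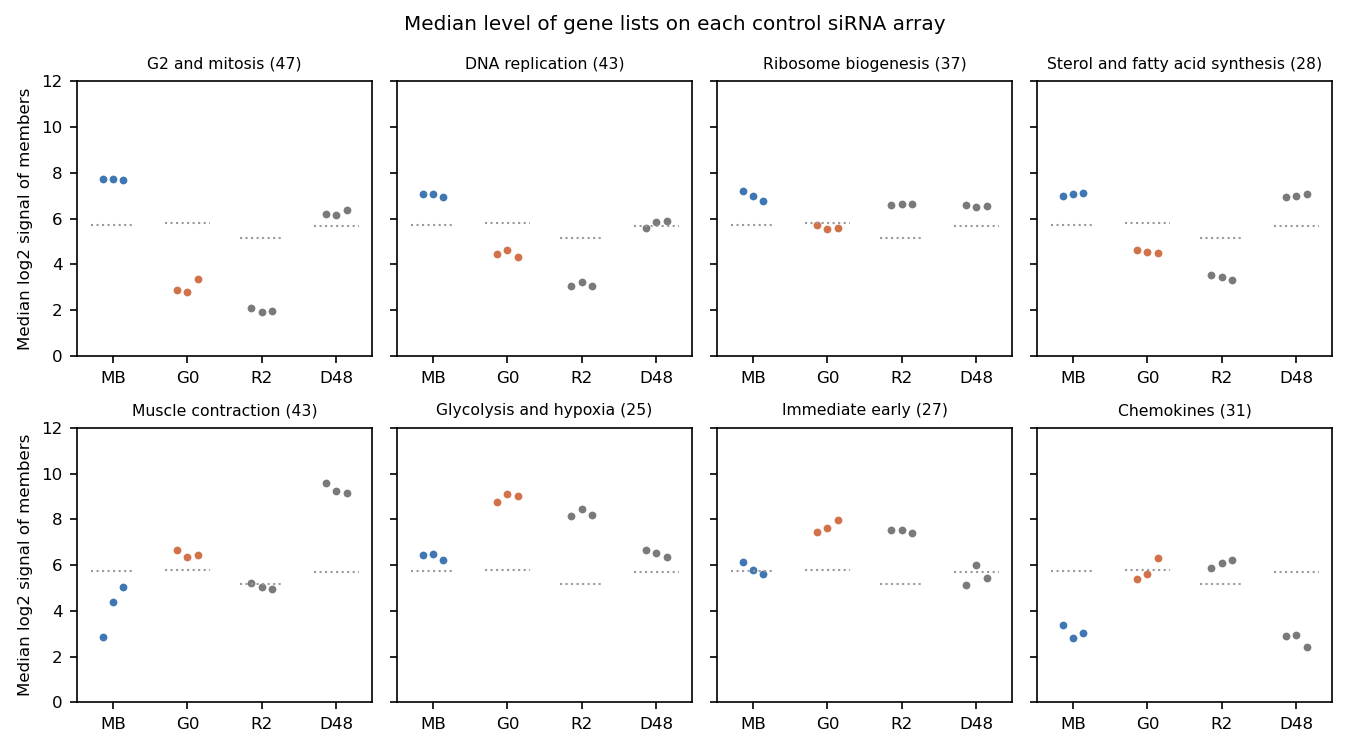
Median log2 signal of the tested members of 8 gene lists on each control array in the 4 states, with dotted lines for the median of all 8597 tested genes. Mitosis, replication and sterol genes are low in quiescent and replated cells, muscle contraction genes spread from 2.85 to 5.05 on the proliferating arrays, and chemokines are high in quiescent and replated cells only.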

How the data were processed

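The deposited values are log2 signals, made by the authors from Affymetrix arrays; the submitters' processing notes name affy, GCOS and Affymetrix Expression Console, and no source used here gives the normalisation method. Values were used as deposited. Sorted values agreed within a state (median range 0.0384 over the 6 proliferating and 0.0625 over the 6 quiescent arrays of both siRNAs) and differed across all 24 arrays (0.443). Of 22690 probe sets, 20380 name 1 gene, 691 several and 1555 none by the platform annotation, with symbols updated through RefSeq gene IDs. For each gene the brightest probe set on average was taken, but sets with _x_at in their name were used only for genes with no other set. Of 12393 genes, 8597 read above their array's 40th percentile on at least 3 arrays. The filter used all groups.

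All 24 arrays were fitted with limma 3.58.1 (R 4.3.3), with no covariate, and p-values were adjusted over all 8597 genes by Benjamini-Hochberg. Where nothing says that replicates came from separate cultures, p-values measure only the spread between these samples, which may be technical. Array number limits the precision. On simulated data with 8597 genes the fit recovered 50.7% of 67 changes of 0.5 log2, 95.5% of 67 changes of 1 and 100% of 66 changes of 2, with 13 false among 177 calls. Only these genes changed in the simulation, whereas 71.3% of genes were called in the data. The adjusted threshold differs with that share, so these rates do not carry over to the measured comparison. Same-numbered quiescent and proliferating control arrays did not deviate together (correlations of -0.03, 0.04 and 0.07), whereas quiescent and replated ones did (0.27, 0.42 and 0.16). Quiescent and differentiating ones correlated at 0.14, 0.25 and 0.074, so 1 pair missed the limit of 0.1 set for every pair. By that limit the numbers pair the control samples in the replating comparison. A fit with the replicate number within each siRNA as a block was run for all comparisons as an alternative. Pairing of same-numbered arrays across the 2 siRNAs was not checked. The genes named are the 15 largest rises and falls with non-overlapping arrays, up to 8 of the largest called members per list, all members of lists under 12, the 5 largest differences between siRNAs each way, and Ift88. Others, such as Myog, Srebf2, Cdk1, Pcna, Fzr1, Pax7 and the genes of the closing observations, were added after their values were seen. The comparison and the lists were chosen with earlier results of these data known, and lists share some genes.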

Additional observations from a re-analysis of the deposited data

Results flagged for a closer look

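For 30 of the named genes the entry change differed between control and IFT88 siRNA by a test of the difference itself (limma interaction term, adjusted p under 0.05 over 8597 genes). The values are the knockdown entry change minus the control one. The difference was 17 times a smaller fall, 10 times a smaller rise and 3 times a larger rise after IFT88 siRNA. Many named genes were chosen for large changes on the control arrays, which the difference subtracts, and others for the largest differences themselves. Such a choice favours smaller changes after IFT88 siRNA, so this split says nothing about genes in general.

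Smaller falls were seen for D17H6S56E-5 (2.29), Mki67 (2.24), Ccnb2 (2.11), Ube2c (2.00), Bub1 (1.88), Birc5 (1.87), Cep55 (1.72), Ect2 (1.60), Cdca5 (1.50), Kif11 (1.47), Hmmr (1.35), Mcm5 (1.32), Uhrf1 (1.31), Kif23 (1.29), Aurka (1.10), Tk1 (1.07) and Aurkb (0.79). Nearly all are genes of mitosis or replication. Birc5 read 2.57, 2.93 and 3.19 in quiescent control cells and 4.60, 4.97 and 4.72 in quiescent knockdown cells, with 8.50 to 8.72 on all 6 proliferating arrays.

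Smaller rises were seen for Cck (-1.90), Clec10a (-1.74), Cd93 (-1.38), Ephx1 (-1.36), Ccl8 (-1.31), Cd14 (-1.22), Cd68 (-1.21), Tgfbi (-1.13), Btc (-0.92) and Smtn (-0.78). The hormone gene Cck read 4.36, 4.60 and 4.72 in quiescent control cells and 2.55, 3.21 and 2.67 in quiescent knockdown cells. Cd14, the lipopolysaccharide coreceptor, read 8.01, 8.00 and 8.01 against 6.57, 6.49 and 6.36.

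Larger rises were seen for Msln (1.95) and the complement proteases C1s1 (1.69) and C1ra (1.54). C1s1 read 3.98, 4.20 and 4.85 in quiescent control cells and 6.51, 5.76 and 5.48 in quiescent knockdown cells. Msln did not change in control cells past the threshold (0.15), and on proliferating arrays it read 3.13 to 4.19 with control and 1.86 to 2.36 with IFT88 siRNA, so the difference there comes with a lower start.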

How the results depend on the processing

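The count of genes changed on entry in control cells stayed within 1.5 times of 6131 under every alternative run, from 4874 with the filter at the 60th percentile to 6956 with no filter, and from 5793 to 5974 when 1 array was left out. The counts for entry after IFT88 siRNA, for differentiation and for replating also stayed within that limit. The count of differences between siRNAs went from 107 to 285 with array weights and was 77 to 102 with 1 array left out. With the replicate number as a block, counts were 6326 for control entry, 6155 for knockdown entry, 129 for the difference, 5886 for differentiation and 6740 for replating, so the block changed no count by 1.5 times. Of 349 named genes called on entry, 12 lost the call under at least 1 of 17 alternatives (34 of 5886 values), and Itgav turned to -0.18 when the probe sets of a gene were averaged. Genes not called turned sign for Des (0.33) with averaged probe sets and Lmod1 (-0.066) with quantile normalisation. With quantile normalisation and centring, Laptm5 turned to -0.20 and -0.12, Msln to -0.056 and -0.061, and Rgs20 to -0.083 and -0.11, and Msln with array weights to -0.12. With 1 array left out, Msln ran from -0.15 to 0.38 and Rgs20 from -0.065 to 0.23, both lowest without the first proliferating array, and Rgs20 was -0.045 without the third quiescent array. The median of the CDK inhibitor list turned to -0.13 with centring and ran from -0.12 (without the first proliferating array) to 0.26. That of the cilium list turned to -0.017 with centring and that of the smooth muscle list to 0.23 with averaged probe sets. That of the satellite cell list turned to 0.12 with averaged probe sets and ran from -0.11 to 0.27 with 1 array left out, highest without the third proliferating array. Signals near the bottom of the scale limit the size of the largest changes, and 3 arrays a group limit all of them.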

Other observations

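Several of the other large changes in control cells fell outside the lists, and these genes were picked after their values were seen. A second carbonic anhydrase, Car12, rose by 6.03, and a second glucose transporter, Slc2a3, by 5.24; Car12 read 1.38, 1.43 and 1.51 in proliferating and 7.14, 7.77 and 7.51 in quiescent cells. The matrix protein Spon2 rose by 6.02, from 2.14, 2.33 and 2.62 to 8.39, 8.24 and 8.52. Il33, an alarm cytokine kept in the nucleus, rose by 4.98 and the purine-degrading enzyme Xdh by 4.86. Csf2rb2, a close relative of Csf2rb, rose by 4.88, and signals of the 2 genes may not be fully separable on this array.

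Falls outside the lists included the scaffold protein Akap12 (-4.14), the tubulin-binding protein Stmn1 (-3.13), the branched-chain aminotransferase Bcat1 (-2.70) and Ahcy (-2.49), which clears the product of methylation reactions. Serpinb2, an inhibitor of plasminogen activators, read 6.53, 5.14 and 3.87 on the proliferating arrays and 1.97, 2.20 and 2.63 on the quiescent arrays, a change of -2.91 ± 0.58. After replating it read 5.50, 7.37 and 6.99.

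Across the 3 proliferating control arrays muscle genes and Cdkn1a were lowest on the first, which read 7.79 for Cdkn1a, 4.94 for Myog and 3.74 for Selenop, against 8.99, 8.74 and 6.18 on the third. Serpinb2 had the opposite order on these arrays.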
